A study of Mus musculus with 4 samples.

Results

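The 38 genes described here encode molecular chaperones and components of the unfolded protein response. They were chosen by name, with earlier results of these data known, and were counted in nuclei of mouse hippocampus. The count tables hold 56748 gene identifiers under 53174 gene names, and 39 of these identifiers belong to the 38 genes, because Ddit3 is listed under a pair of identifiers. All UMIs (unique transcripts) of Ddit3 were on one of them, 708 against 0.

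Nuclei came from 8 pools of hippocampi, each of 3 male mice, and each pool was 1 condition. Stress was repeated social defeat (RSD), in which an aggressive CD-1 male was put into the home cage on consecutive nights, and controls were left undisturbed. Nuclei were taken 14 h after the last defeat. In a diet experiment, Control-Vehicle and Stress-Vehicle mice ate standard chow, while Control-PLX5622 and Stress-PLX5622 mice ate chow with PLX5622, an antagonist of the CSF1 receptor that depletes microglia. In a genotype experiment, Con-IL-1R1+/+ and Stress-IL-1R1+/+ mice carried no Cre, while Con-nIL-1R1-/- and Stress-nIL-1R1-/- mice carried Vglut2-driven Cre, which removes the interleukin-1 receptor IL-1R1 from glutamatergic neurons. That driver acts in Vglut2 neurons throughout the brain, so the deletion was not limited to the hippocampus. All pools were barcoded together, and each of the 4 sublibraries analysed here held nuclei of every pool. The labels give no age, and no condition had a second pool, so a single pair of pools has counting error only.

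Between 5858 and 8474 nuclei per pool were kept, with a median of 598 to 5012 UMIs per nucleus. Both PLX5622 pools were the shallowest, at 598 and 628 UMIs. Il1r1, the targeted gene, was at 61.6 CPM (UMIs of the gene, scaled to the same total of UMIs in each class and pool) in DG nuclei of Con-IL-1R1+/+ and at 11.5 CPM in Con-nIL-1R1-/-, and at 29.8 and 8.94 CPM in the stressed pools of these genotypes. Microglia numbered 6 and 8 nuclei in the PLX5622 pools and 154 to 202 in the others. Nuclei were grouped by marker genes, and 9 classes were compared. Neuronal classes were dentate gyrus (DG), CA1, CA2/3 and inhibitory (INH), and the others were oligodendrocytes, oligodendrocyte precursors (OPC), astrocytes, microglia and endothelial cells. These names mean nuclei like those cells. Nuclei named as other excitatory neurons, at 262 to 618 per pool, were not compared, and neither were nuclei left unnamed, at 1129 to 2593 per pool. Slc17a6 excitatory, medium spiny, Cajal-Retzius and ependymal nuclei were left out too. Summed INH markers were at 9940 to 14700 CPM in INH against 1810 to 2680 CPM in DG and 615 CPM or less in CA1 and CA2/3. Markers of CA1 set their class apart less well, at 1330 to 2720 CPM in CA1 and 717 to 1790 CPM in CA2/3. Within CA1 these markers were lower in stress in all 4 pairs, at 1870 and 1470 CPM in the Vehicle pair, 1810 and 1330 CPM in the PLX5622 pair, 2720 and 1990 CPM in the IL-1R1+/+ pair and 2340 and 1900 CPM in the nIL-1R1-/- pair, control before stress.

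Chaperones bind unfolded protein and help it to fold. In the cytosol, HSP70 and HSP90 proteins do so with J-domain partners and nucleotide exchange factors, and heat shock factor 1 (HSF1) turns on their genes when unfolded protein builds up. In the endoplasmic reticulum (ER), the work falls to BiP (Hspa5), GRP94 (Hsp90b1), the lectin chaperones calreticulin (Calr) and calnexin (Canx), and disulfide isomerases. Unfolded protein in the ER is sensed by ATF6, IRE1 (Ern1) and PERK (Eif2ak3). These sensors act through cleaved ATF6, spliced XBP1 and ATF4, which in turn induce ER chaperones and, under long stress, the cell death factor CHOP (Ddit3). Splicing of Xbp1 and cleavage of ATF6 leave no trace in counts per gene, so these data hold RNA levels only.

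The ER arm of this response is known for a DNA element in its target promoters, the ER stress response element (ERSE), a CCAAT box and a CCACG box spaced by 9 bases. This pair of boxes, CCAAT then CCACG with 9 bases between them, was searched on both strands of the 250 bases upstream of each annotated start. It occurred in 25 of 21757 promoters of protein-coding genes (0.115%) and in 6 of the 38 genes: Hspa5, Hsp90b1, Calr, Canx, Pdia6 and Dnajc3. The matches are shown because Calr, Hspa5 and Hsp90b1, which have them, lead the comparison of stress with control, while Canx and Dnajc3, which also have them, do not. Each is given 5′ to 3′ on the strand of its gene (GENCODE vM39, mm39), with the match in capitals and 5 bases on either side. A match on the reverse strand reads CGTGG to ATTGG.
Hspa5, chr2:34662032-34662060, plus strand: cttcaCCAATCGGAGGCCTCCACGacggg
Hsp90b1, chr10:86541497-86541525, minus strand: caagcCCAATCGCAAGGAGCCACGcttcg
Hsp90b1, chr10:86541392-86541420, minus strand: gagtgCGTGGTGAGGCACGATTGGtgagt
Calr, chr8:85573699-85573727, minus strand: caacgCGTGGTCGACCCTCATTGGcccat
Canx, chr11:50216622-50216650, minus strand: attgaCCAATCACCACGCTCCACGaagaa
Pdia6, chr12:17316487-17316515, plus strand: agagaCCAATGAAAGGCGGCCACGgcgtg
Dnajc3, chr14:119175234-119175262, plus strand: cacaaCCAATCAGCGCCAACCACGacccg

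Hsp90b1 was the member with a pair of matches, one on each strand. The Calr match ends 37 bases before the start, and it is given below in the whole 250 bases upstream (chr8:85573668-85573917, minus strand), just outside the annotated gene.
Calr upstream: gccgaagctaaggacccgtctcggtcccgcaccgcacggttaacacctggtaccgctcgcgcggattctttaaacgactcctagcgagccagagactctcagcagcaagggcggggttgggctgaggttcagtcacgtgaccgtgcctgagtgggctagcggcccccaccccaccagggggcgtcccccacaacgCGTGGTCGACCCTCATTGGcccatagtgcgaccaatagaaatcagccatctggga

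Other elements were rarer among the members. The heat shock element, searched as the triplets GAA, TTC and GAA with 2 bases between neighbours, was found in 76 promoters (0.349%) and in Hspd1 and Hspe1 alone of the 38 genes. These genes encode the partner chaperonins HSP60 and HSP10 of mitochondria and share the same start region in opposite directions, so a single stretch of DNA, given on the strand of Hspd1, is the match of both. The element UPRE, searched as TGACGTGG, was found in 122 promoters (0.561%) and in that of Hyou1, an ER partner of BiP. The ATF4 element CARE, searched as TGATGNAA, was found in 737 promoters (3.387%) and in that of Ddit3. No match here says only that these letters were absent from this window, as for Hspa1a, Hspa1b and Hspa8.
Hspd1 and Hspe1, chr1:55127213-55127240, minus strand: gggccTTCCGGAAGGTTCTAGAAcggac
Hyou1, chr9:44290653-44290670, plus strand: aaccgTGACGTGGcccaa
Ddit3, chr10:127126356-127126373, plus strand: aaacaTTGCATCAtcccc

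The heat-inducible HSP70 genes were close to absent from these nuclei. Hspa1a was counted with 9 UMIs and Hspa1b with 19 UMIs over all 9 classes and 8 pools. These are near-identical single-exon genes next to each other (chr17:35188166-35191132 and chr17:35175412-35178214, minus strand), so reads of one can be assigned to the other or left out. Together with Hspa2 (90 UMIs), a testis-type HSP70, and Cryab (98 UMIs), they were too low to be tested for stress in any class. The other 34 genes passed the filter on low counts in at least 1 class.

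Cryab, the small heat shock protein αB-crystallin, was the gene most bound to a class. Its median over pools was 19.4 CPM in oligodendrocytes (lowest pool 10.1, highest 34.3), against 0.728 CPM in astrocytes, the next class, and the ranges did not overlap with those of any other class. Its oligodendrocyte values rested on 52 UMIs. Cryab was the only member whose highest class stood apart from every other class in this way.

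Other genes had less marked preferences, with ranges that overlapped between neighbouring classes. Dnajc6, which encodes auxilin, the J-domain protein that uncoats clathrin vesicles, was highest in CA2/3 (median 491 CPM) and then in oligodendrocytes (385 CPM), and lowest in endothelial nuclei (81.4 CPM). Atf6 was highest in DG (194 CPM) and lowest in INH (81.3 CPM). Bag3, a nucleotide exchange factor of HSP70 that directs clients to autophagy, was at 22.5 CPM in endothelial nuclei and 16.6 CPM in astrocytes but at 0.509 CPM in CA2/3. The IRE1 gene Ern1 and its target Xbp1 were both highest in endothelial nuclei, at 81.4 and 18.5 CPM, and lowest in INH, at 24.4 and 4.76 CPM. These endothelial values rested on few UMIs, 21 in all for Xbp1. Summed pericyte markers were at 1400 to 2780 CPM in the endothelial class, against 116 CPM or less in each other class. The part of pericytes in its values was not tested. Levels of different genes were compared only per kb of gene span, since introns are counted in nuclei. In DG the highest of them were Dnajb5 (5.64 CPM per kb), Calr (4.61 CPM per kb), Hsp90ab1 (3.6 CPM per kb) and Hsp90b1 (3.13 CPM per kb), and BiP was at 2.08 CPM per kb.

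**Figure D1:**
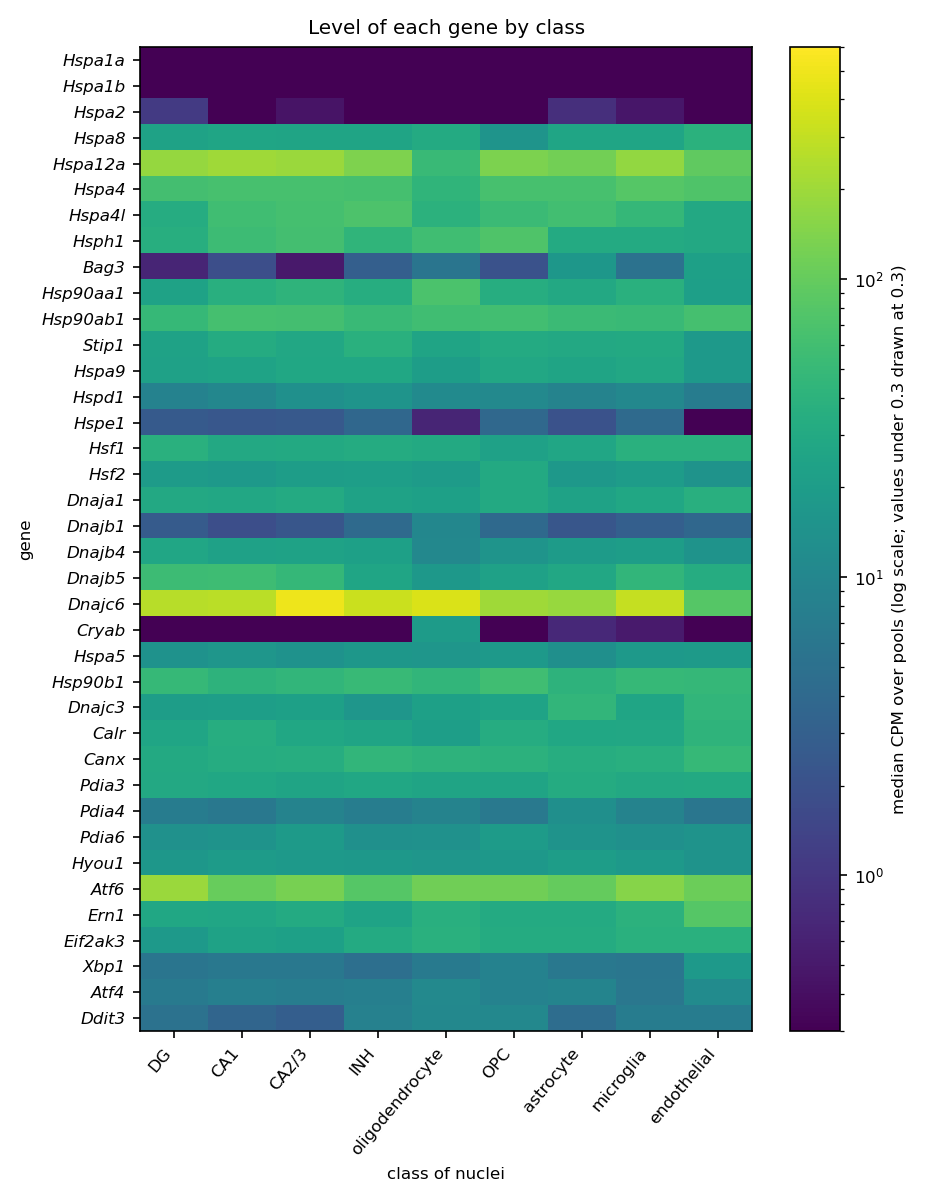
Level of each of the 38 genes (rows) in each class of nuclei (columns), as the median CPM over pools on a log color scale, with values under 0.3 CPM drawn at 0.3. Hspa1a and Hspa1b are dark throughout, Cryab stands out in oligodendrocytes (19.4 CPM) alone, and colors compare classes within a row, since CPM is not scaled to gene length.

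The first comparison asked whether RSD altered these genes. Stress was compared with control over the 4 pairs of pools (Vehicle, PLX5622, IL-1R1+/+ and nIL-1R1-/-) with a quasi-likelihood test of edgeR, and p-values were adjusted by Benjamini-Hochberg over all genes tested in a class. None of the 238 tests of members over the 9 classes passed an adjusted p of 0.05, where 0.071% of all tests did so. DESeq2 called 2 of them, both of Hsp90ab1, beside 255 of 220499 tests of all genes. At an unadjusted p under 0.05 there were 38 member tests (16.0%), 32 with higher and 6 with lower values after stress, beside 11.1% of all tests. The values below are therefore a description of direction and size.

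In neurons, 90 of 128 member tests had higher values after stress, where 49.8 to 51.4% of all genes of a neuronal class did. All 28 member tests with an unadjusted p under 0.05 in DG, CA1, CA2/3 and INH were higher in stress. Such a p was found in 8.9 to 16.5% of all genes of these classes. In 34 of 128 neuronal tests (26.6%) a member was higher in stress in all 4 pairs, beside 11.9% of all genes tested. A member was lower in all 4 pairs in 2 tests (1.56%, beside 9.9% of all genes): Dnajb4, an HSP40 cochaperone, and Eif2ak3, the sensor PERK, both in INH. The median log2 difference over members was 0.08 in DG, 0.15 in CA1, 0.18 in CA2/3 and 0.17 in INH, where the median over all genes lay between 0.00 and 0.01.

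Genes of ER chaperones were at the front. Of 36 neuronal tests of the 9 ER chaperones, 34 had higher values in stress, 15 with an unadjusted p under 0.05, and their median log2 difference was 0.31. Calr, the calcium-binding lectin chaperone of the ER, had the smallest p of the members in CA1 and INH. In CA1 its level was 34.7 CPM in Control-Vehicle and 72.4 CPM in Stress-Vehicle, and 41.5 and 85.1 CPM in Control-PLX5622 and Stress-PLX5622. In the genotype experiment it was 21.9 and 33.6 CPM in Con-IL-1R1+/+ and Stress-IL-1R1+/+, and 17.7 and 26.0 CPM in Con-nIL-1R1-/- and Stress-nIL-1R1-/-. Each stress pool was above its own control, and pools of the diet experiment were above those of the genotype experiment, so that control and stress pools overlapped when the pairs were ignored. The fitted log2 difference in CA1 was 0.78 ± 0.16 (SE, 4 pairs; edgeR adjusted p = 0.1968). CA1 nuclei lay in different clusters by condition. The deeper of the larger clusters (median 3676 UMIs per nucleus) held 62.7 and 20.5% of CA1 nuclei in the Vehicle pair, 14.2 and 4.4% in the PLX5622 pair, 84.1 and 72.2% in the IL-1R1+/+ pair and 81.7 and 62.4% in the nIL-1R1-/- pair, lower in stress in each. A small cluster of 621 nuclei named CA1 (median 4615 UMIs) was not part of it. Cpa6 and Cdc14a led the genes that set it apart from other neurons, and Wfs1 was the only CA1 marker among the leading 10. Whether its nuclei are of CA1 neurons was not tested. That small cluster held 109 and 3 nuclei in the Vehicle pair, 52 and 20 in the PLX5622 pair, 20 and 80 in the IL-1R1+/+ pair and 149 and 188 in the nIL-1R1-/- pair. Within the deeper cluster alone the CA1 difference of Calr was 0.71 ± 0.18 (edgeR adjusted p = 0.0582), and those of Hspa5 and Hsp90ab1 were 0.76 ± 0.24 and 0.51 ± 0.14. The part of the lower CA1 markers and of the small cluster in the values over all CA1 nuclei was not tested.

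In DG the difference of Calr was unequal between the experiments. Its level went from 23.8 to 46.9 CPM in the Vehicle pair and from 27.2 to 86.6 CPM in the PLX5622 pair. The IL-1R1+/+ pair was at 25.6 and 27.5 CPM and the nIL-1R1-/- pair at 14.2 and 16.4 CPM, control before stress. The wider gaps in DG were those of the diet experiment, with a log2 value of 1.18 when fitted alone, against 0.16 in the genotype experiment alone and 0.66 ± 0.19 over all 4 pairs (edgeR adjusted p = 0.1801). The same order was found in CA2/3, with 1.07 in the diet experiment, 0.30 in the genotype experiment and 0.69 ± 0.18 over all pairs (edgeR adjusted p = 0.1042). INH had values of 0.86 and 0.34, and 0.58 ± 0.16 over all pairs (edgeR adjusted p = 0.2248). The 2 deeper of the larger DG clusters held 79.1 and 55.3% of DG nuclei in the Vehicle pair, control before stress. The PLX5622 pair had 25.6 and 20.2%, the IL-1R1+/+ pair 85.6 and 89.4%, and the nIL-1R1-/- pair 93.7 and 82.5%. Their part in the DG values was not tested, and neither was whether the experiments differ.

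BiP (Hspa5), the ER HSP70 that holds the sensors inactive, had a different spread over pools. In INH it was at 17.0 and 18.9 CPM in the Vehicle pair and 17.6 and 24.8 CPM in the PLX5622 pair, control before stress. There the wider gap was in the genotype experiment, from 7.64 to 16.7 CPM in the IL-1R1+/+ pair and from 7.93 to 13.2 CPM in the nIL-1R1-/- pair. The fitted log2 difference was 0.61 ± 0.20 in INH (edgeR adjusted p = 0.3491), 0.74 ± 0.19 in CA1 (edgeR adjusted p = 0.225) and 0.62 ± 0.20 in CA2/3 (edgeR adjusted p = 0.1381). Over 16 alternative settings the CA1 value lay between 0.22 and 0.89. With the genotype experiment alone, the INH value was 0.90 (edgeR adjusted p = 0.045), against 0.23 in the diet experiment alone. In DG it was 0.20 ± 0.18, which is about the size of its error. Hspa5 lies at chr2:34661982-34668880 and overlaps Rabepk on the opposite strand, and whether the counting used strand is not given in the sources used here, so UMIs of the pair cannot be told apart. Calr (chr8:85567946-85573667), Atf4 and Dnajb5 overlap no other annotated gene. Other members that overlap genes on the opposite strand include Hsf1 (Bop1 and Dgat1), Pdia6 (Atp6v1c2), Xbp1 (Ccdc117), Ddit3 (Mbd6 and Mars1) and Cryab (Hspb2). Hsp90b1 overlaps Gm15344 and Gm54730 on its own strand.

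The other ER chaperones were fainter. Hsp90b1, the ER form of HSP90, had fitted log2 differences of 0.34 in DG, 0.47 in CA1, 0.46 in CA2/3 and 0.37 in INH, each with an unadjusted p under 0.05 and none with an adjusted p under 0.05. In CA1 its level rested most on the PLX5622 pair, 49.7 and 112 CPM, while the IL-1R1+/+ pair was at 30.5 and 36.4 CPM. Without the PLX5622 pair the log2 difference there was 0.30. Hyou1, an ER member of the HSP110 family, had 0.52 ± 0.18 in INH (edgeR adjusted p = 0.3491), where it went from 16.3 to 28.6 CPM in the Vehicle pair and from 12.8 to 18.3 CPM in the nIL-1R1-/- pair. The isomerase Pdia6 was higher in all 4 pairs in DG and INH, with 0.33 ± 0.19 and 0.44 ± 0.19. Canx, the membrane-bound partner of calreticulin, had fitted log2 differences of -0.15 in DG, 0.00 in CA1, 0.12 in CA2/3 and 0.15 in INH. Its pairs went both ways in CA1, at 40.7 and 26.4 CPM in the Vehicle pair and 34.3 and 46.2 CPM in the PLX5622 pair. The IL-1R1+/+ pair was at 32.6 and 29.8 CPM there and the nIL-1R1-/- pair at 25.1 and 35.3 CPM, control before stress. Over the 6 genes with an ERSE match, 23 of 24 neuronal tests were higher in stress, 12 with an unadjusted p under 0.05, and the median log2 difference was 0.36. Calr, Hspa5 and Hsp90b1 are among the 6, and the matches are shown because these genes lead, so this count cannot test the element. Canx and Dnajc3 had no unadjusted p under 0.05. The 3 ER chaperones without a match, Hyou1, Pdia3 and Pdia4, were higher in 11 of 12 tests, 3 with an unadjusted p under 0.05. Whether genes with and without a match differ was not tested. Over all genes, 8.9 to 16.5% of the tests of a neuronal class had an unadjusted p under 0.05. Dnajc3, an ER cochaperone with a match, had 0.03 in DG, 0.15 in CA1, 0.40 in CA2/3 and 0.26 in INH, none with an unadjusted p under 0.05.

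**Figure D2:**
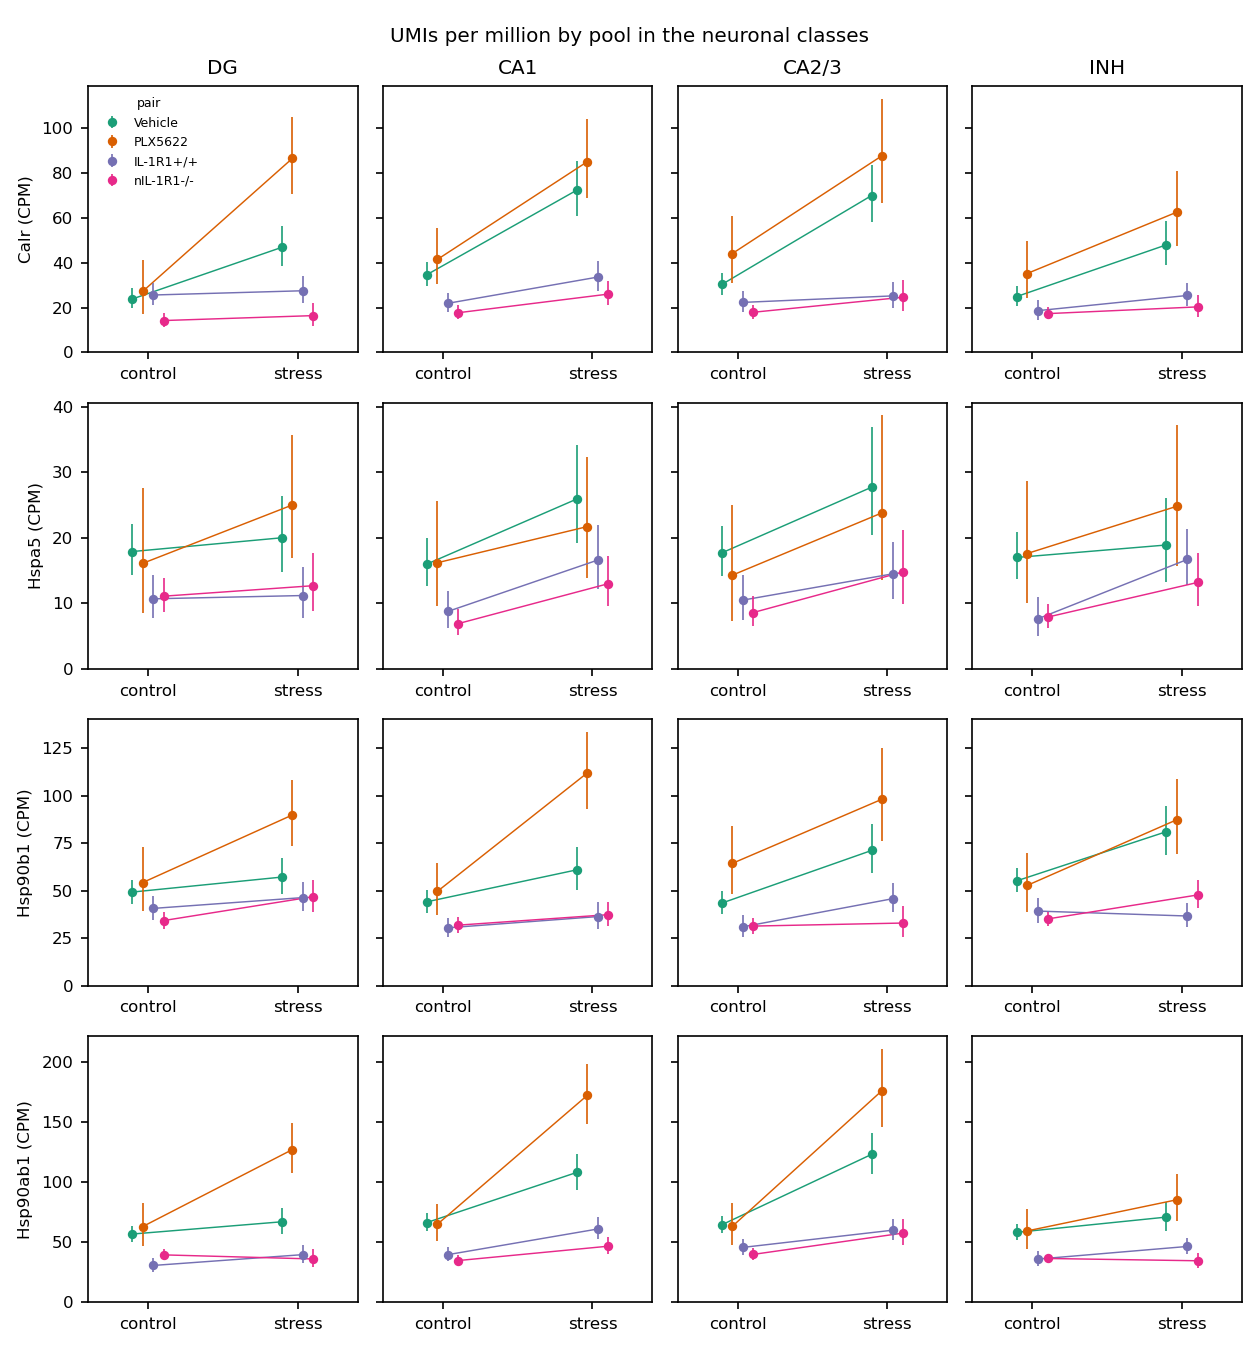
CPM of Calr, Hspa5, Hsp90b1 and Hsp90ab1 (rows) in the 4 neuronal classes (columns), with control and stress pools of each pair joined by a line and bars for the exact Poisson 95% interval, which covers counting error only. Calr in CA1 goes from 34.7 to 72.4 CPM in the Vehicle pair and from 17.7 to 26.0 CPM in the nIL-1R1-/- pair, and the PLX5622 pair has the widest bars.

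HSP90 genes of the cytosol had their widest differences in the pyramidal classes. Hsp90ab1, the constitutive HSP90β, had the smallest adjusted p of any member. In CA2/3 it was at 64.5 and 123 CPM in the Vehicle pair, 63.2 and 176 CPM in the PLX5622 pair, 45.7 and 60.0 CPM in the IL-1R1+/+ pair and 39.9 and 57.6 CPM in the nIL-1R1-/- pair. All 4 stress pools were above their controls, and the differences of the diet experiment were the wider ones. The fitted log2 difference was 0.77 ± 0.16 (edgeR adjusted p = 0.07166), just outside the threshold, with 1.10 in the diet experiment alone and 0.45 in the genotype experiment alone. DESeq2 gave the same 0.77 with an adjusted p of 0.01638, and without the PLX5622 pair edgeR gave 0.62 (adjusted p = 0.03521). In CA1, Hsp90ab1 had 0.73 ± 0.16 (edgeR adjusted p = 0.2031). DG and INH had 0.31 ± 0.14 and 0.23 ± 0.13 (DG was -0.02 with nuclei thinned to 500 UMIs), and in both the nIL-1R1-/- pair was lower in stress, by 0.13 and 0.08. Hsp90ab1 (chr17:45878552-45891949) overlaps Slc35b2 on the opposite strand. Hsp90aa1, the stress-inducible HSP90α, was higher in all 4 pairs in DG, CA1 and CA2/3, with fitted values of 0.25, 0.29 and 0.49, and had 0.09 ± 0.14 in INH (-0.08 in the diet experiment alone).

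The heat shock arm was mixed. Hsf1 itself, the master factor of the heat shock response, had the smallest p in DG. Its DG level was 38.1 and 51.0 CPM in the Vehicle pair, 19.8 and 40.0 CPM in the PLX5622 pair, 24.1 and 36.5 CPM in the IL-1R1+/+ pair and 31.8 and 39.5 CPM in the nIL-1R1-/- pair. Every pair was higher in stress, with a log2 difference of 0.49 ± 0.14 (edgeR adjusted p = 0.1786), and the experiments were close to each other, at 0.55 and 0.45. CA2/3 and INH were higher in all 4 pairs as well, with 0.45 ± 0.17 and 0.32 ± 0.15. Hsf2, its developmental relative, had values of -0.21, -0.20, -0.33 and -0.09 in DG, CA1, CA2/3 and INH, none with an unadjusted p under 0.05. Among known HSF1 targets, Hspa8, the constitutive HSC70, had 0.50 ± 0.20 in CA1 and 0.45 ± 0.18 in INH but 0.06 ± 0.17 in DG. Hsph1, the cytosolic HSP110, had 0.44 ± 0.14 in DG (edgeR adjusted p = 0.2222) and 0.49 ± 0.16 in CA1 (edgeR adjusted p = 0.2308). Over the 18 neuronal tests of J proteins, 7 were higher and 11 lower, and their median was -0.11.

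Bag3 was higher in all 4 pairs in INH, at 2.56 and 4.59 CPM in the Vehicle pair, 4.40 and 6.48 CPM in the PLX5622 pair, 1.91 and 3.44 CPM in the IL-1R1+/+ pair and 1.06 and 2.57 CPM in the nIL-1R1-/- pair, on 73 UMIs in all. Its fitted log2 difference was 0.89 ± 0.39. Hspa4 and Hspa4l, further HSP110 genes, lay between -0.11 and 0.13 in the 4 neuronal classes, with errors of 0.12 to 0.16. Of 10 neuronal tests of the mitochondrial genes Hspa9, Hspd1 and Hspe1, 6 were higher and 4 lower, with a median of 0.07. Hspa9, the mitochondrial HSP70, was higher in all 4 pairs in CA2/3, at 0.25 ± 0.17. The isomerases Pdia3 and Pdia4 had their highest values in CA1 (0.40 ± 0.19) and CA2/3 (0.78 ± 0.31), higher in 3 of 4 pairs each. Dnajb1, an HSP40 and HSF1 target, passed the filter in DG and INH among the neuronal classes, at -0.29 ± 0.38 and 0.31 ± 0.33.

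Sensors and factors of the unfolded protein response had no member test with an unadjusted p under 0.05 in neurons. Of the 12 tests of the sensors Atf6, Ern1 and Eif2ak3, 3 were higher and 9 lower (median log2 difference -0.08). Of all genes of a neuronal class 49.8 to 51.4% had higher values, and 44.4 to 46.9% where exons fill under 20% of the span. Exons fill 4.6, 7.4 and 7.5% of the span of Atf6, Ern1 and Eif2ak3, and the part of this share was not tested. All 11 tests of the factors Xbp1, Atf4 and Ddit3 were higher (median 0.18), but with wide errors. Xbp1 was higher in all 4 pairs in DG, from 5.91 to 6.94, 6.18 to 9.99, 4.39 to 5.44 and 2.85 to 3.72 CPM in the Vehicle, PLX5622, IL-1R1+/+ and nIL-1R1-/- pairs, a log2 difference of 0.34 ± 0.28. These levels rested on 127 UMIs in all. Atf4, the factor downstream of PERK, had 0.07 ± 0.28 in DG, 0.03 ± 0.24 in CA1, 0.01 ± 0.28 in CA2/3 and 0.18 ± 0.26 in INH. Ddit3 had pairs in both directions in DG, with 6.11 and 11.0 CPM in the Vehicle pair but 5.69 and 4.84 CPM in the nIL-1R1-/- pair, and a fitted value of 0.33 ± 0.30.

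**Figure D3:**
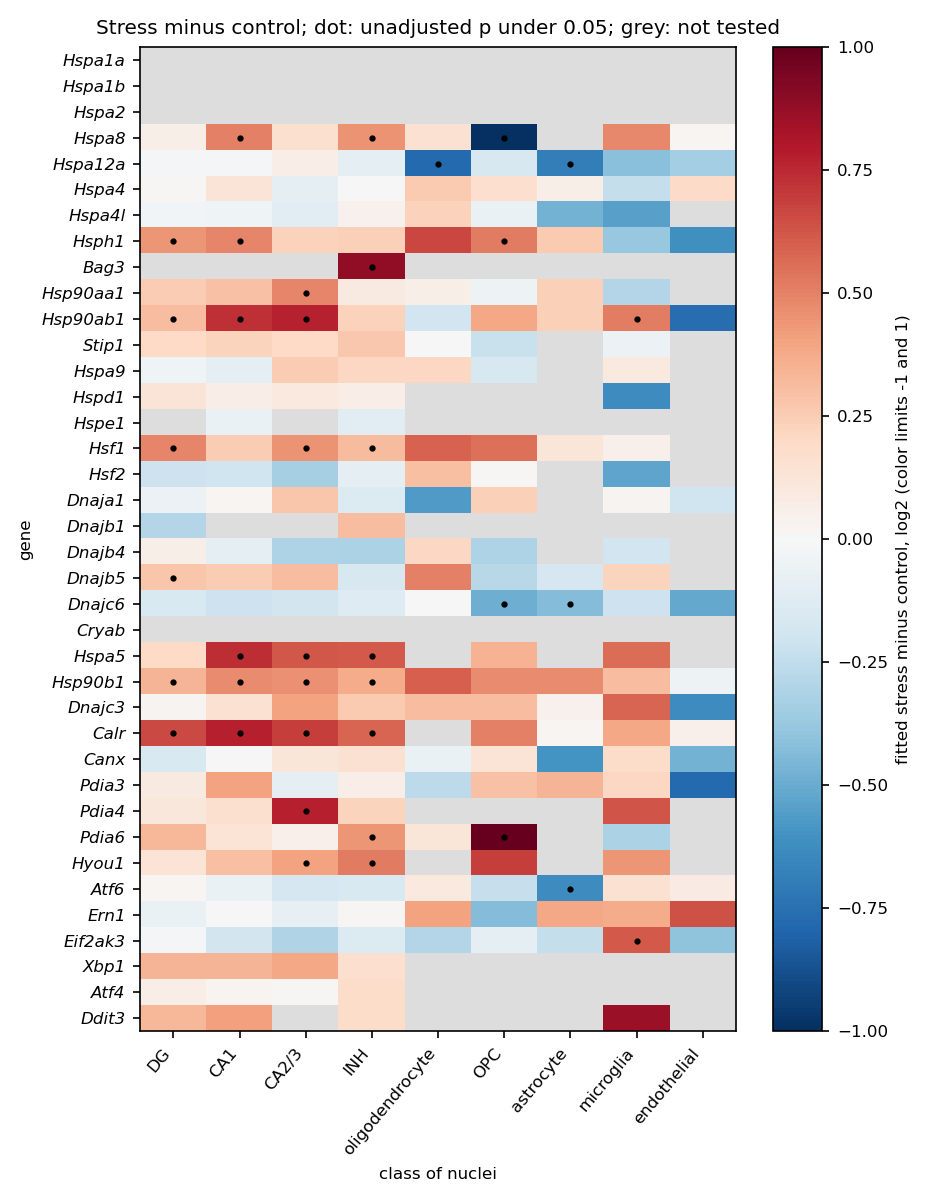
Fitted log2 difference of stress minus control from edgeR, by gene and class of nuclei. Fits used 4 pairs, except that microglia and endothelial nuclei were fitted without the PLX5622 pair. Calr is between 0.58 and 0.78 in the 4 neuronal classes, and Atf4 is between 0.01 and 0.18 there, within its standard error (not drawn) in each.

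Other genes of these pathways were taken from lists that hold 67 genes and none of the 38. None was called for stress in any class. Of the 219 neuronal tests of these lists, 131 had higher values, 10 were higher and 4 lower at an unadjusted p under 0.05, and the median log2 difference was 0.04. Among all genes of a neuronal class, 8.9 to 16.5% had such a p and 49.8 to 51.4% had higher values. Whether the lists differ from the members was not tested. Among further targets of ATF6 and XBP1, such as Herpud1, Manf and Sdf2l1, 5 tests were higher and 2 lower of 56. The lists gave 3 higher and 1 lower of 59 tests for HSF1 targets and cochaperones, 1 and 1 of 44 for targets of PERK and ATF4, and 0 of 32 for the chaperonin TRiC. Mitochondrial chaperones and proteases had 23 of 28 tests with higher values, with a median of 0.13 and 1 unadjusted p under 0.05.

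The share of a ribosomal RNA sequence among UMIs was higher in stress as well. Rn18s-rs5, a ribosomal RNA sequence, was higher in stress in all 4 pairs of the 4 neuronal classes. In DG it was at 9570 and 10800 CPM in the Vehicle pair, 14700 and 24000 CPM in the PLX5622 pair, 5460 and 7590 CPM in the IL-1R1+/+ pair and 4300 and 6380 CPM in the nIL-1R1-/- pair. Mitochondrial transcripts in DG reached 4640 CPM in Stress-PLX5622, against 1290 to 2360 CPM in the other 7 pools, and were lower in stress in the IL-1R1+/+ pair, at 2360 and 1720 CPM. Genes whose exons fill at least 20% of their span had higher values in stress as a whole, with a median log2 difference over all such genes of 0.11 in DG, 0.15 in CA1, 0.19 in CA2/3 and 0.09 in INH. For genes under 20% the medians were -0.02, -0.02, -0.04 and -0.02. Members in the first group (Calr at 40.0%, Hspa5 at 71.8% and Hsp90ab1 at 20.2% among them) had medians of 0.20, 0.29, 0.45 and 0.23, and members in the second had 0.03, 0.07, 0.06 and 0.11. Medians of members were above those of all genes on the same side of 20% in each of the 4 classes. They rested on 10 to 12 members at 20% or more and on 20 to 22 below. Exonic shares were not matched within these groups, and the difference was not tested. Median UMIs per nucleus over all nuclei went from 2563 to 1325.5 in the Vehicle pair and from 5012 to 2580 in the nIL-1R1-/- pair. They were 598 and 628 in the PLX5622 pair and 3098.5 and 3218.5 in the IL-1R1+/+ pair, control before stress. The parts of ribosomal RNA, exonic share and depth in the stress values were not tested. Summed microglial and endothelial markers stayed at 18.2 to 42.6 and 10.8 to 29.9 CPM in the neuronal classes. Both were above 0 in every pool. Markers of oligodendrocytes, OPC and astrocytes were higher there, at 123 to 606, 750 to 1880 and 429 to 1520 CPM. Their part in the neuronal values was not tested.

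**Figure D4:**
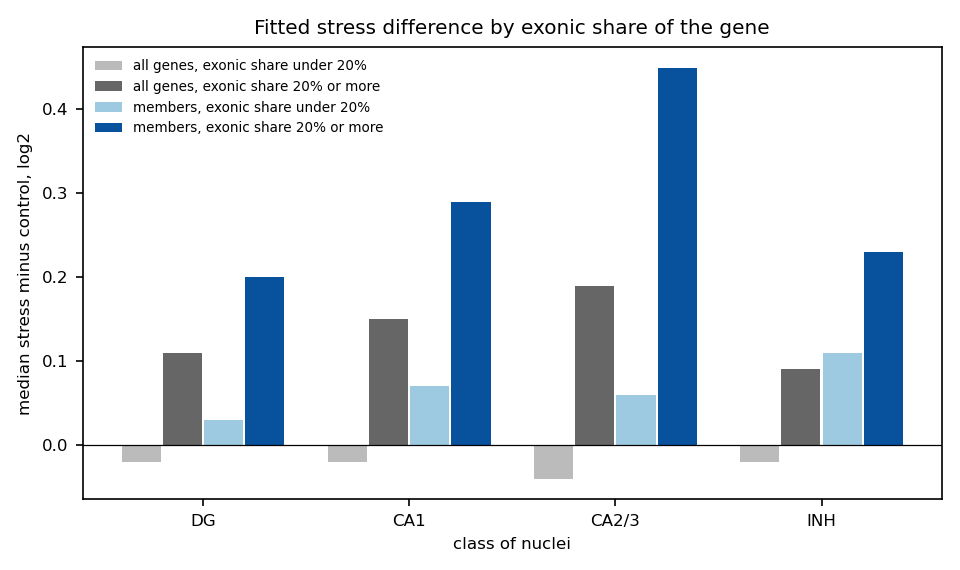
Median fitted log2 difference of stress minus control in the 4 neuronal classes, for genes whose exons fill under 20% or at least 20% of the gene span, over all genes tested and over the members. In CA2/3 the medians are -0.04 and 0.19 for all genes and 0.06 and 0.45 for members.

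Outside neurons fewer members were tested, 15 to 29 per class. Their median log2 difference with stress was 0.15 in oligodendrocytes, 0.08 in OPC, 0.04 in astrocytes, 0.15 in microglia and -0.34 in endothelial nuclei, and of 110 tests 4 were higher and 6 lower at an unadjusted p under 0.05, where 6.5 to 10.1% of all genes of a class had such a p. This share is near that of all genes, and the values that follow describe single genes. The gene with the smallest p in oligodendrocytes and astrocytes was Hspa12a, a distant HSP70 relative that is abundant in brain. In oligodendrocytes it was at 88.8 and 54.9, 89.2 and 31.5, 49.6 and 23.8, and 55.6 and 45.0 CPM in the Vehicle, PLX5622, IL-1R1+/+ and nIL-1R1-/- pairs. Astrocytes were at 147 and 138, 132 and 70.1, 106 and 57.8, and 144 and 69.8 CPM in the same order. Stress was below control in all 8 comparisons, and the fitted log2 differences were -0.78 ± 0.30 in oligodendrocytes (edgeR adjusted p = 0.6187) and -0.69 ± 0.24 in astrocytes (edgeR adjusted p = 0.3224). Microglia had -0.42 ± 0.22 over 3 pairs (edgeR adjusted p = 0.5623). In neurons the same gene was at -0.02, -0.01, 0.07 and -0.09, and whether glia and neurons differ was not tested. Summed CA1 markers in astrocytes were lower in stress in all 4 pairs, at 1170 and 739, 823 and 752, 1190 and 818, and 1430 and 1050 CPM in the same order, and CA2/3 markers were lower in all 4 pairs as well. In oligodendrocytes the CA1 markers were higher in stress in 3 of 4 pairs. Hspa12a was highest in CA1 (median 204 CPM), and exons fill 3.9% of its span. The parts of neuronal RNA and of exonic share in the glial values were not tested.

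Single genes of other kinds had the smallest p in the remaining glial tests. In OPC, Dnajc6 was lower in all 4 pairs (-0.49 ± 0.18; edgeR adjusted p = 0.3746) and Pdia6 higher in all 4 pairs (1.01 ± 0.41; edgeR adjusted p = 0.442), the latter on 77 UMIs. Astrocytes had Atf6 at -0.63 ± 0.27 and Dnajc6 at -0.43 ± 0.20, lower in 3 of 4 pairs each. Exons fill 4.6% of the span of Atf6 and 5.4% of that of Dnajc6, and the part of this share was not tested. In microglia, Eif2ak3 (PERK) was at 0.61 ± 0.27 and Hsp90ab1 at 0.51 ± 0.23, each higher in all 3 pairs that could be fitted. Summed microglial markers in this class were at 950 and 2660 CPM in the Vehicle pair, 1510 and 1350 CPM in the IL-1R1+/+ pair and 606 and 2110 CPM in the nIL-1R1-/- pair, control before stress. Markers of DG were at 1380 to 2000 CPM in the same 6 pools. These DG markers were also at 4120 to 6370 CPM in oligodendrocytes, beside 3560 to 5100 CPM in DG, so their sum is not particular to neurons. The part of RNA of other classes in the microglial values was not tested. Endothelial nuclei had no member with an unadjusted p under 0.05, and Hsp90ab1 there was at -0.76 ± 0.38 on 108 UMIs.

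The second comparison asked whether PLX5622 chow altered these genes, in the 7 classes where the PLX5622 pools held enough nuclei. None of 194 member tests was called, where 0.04% of all tests were, and DESeq2 called none either. At an unadjusted p under 0.05 there were 18 (9.28%, beside 5.23% of all tests), 15 higher and 3 lower with PLX5622. The group of Hsp90aa1, Hsp90ab1 and the HSP90 cochaperone gene Stip1 led. It had higher values in 12 of 12 neuronal tests and a median log2 difference of 0.44, where 50.7 to 51.3% of all genes of a neuronal class had higher values. Hsp90aa1 was at 38.2 and 40.9 CPM in CA1 of Control-Vehicle and Stress-Vehicle and at 64.1 and 87.8 CPM in Control-PLX5622 and Stress-PLX5622. Both PLX5622 pools were above both Vehicle pools, and the log2 difference was 0.96 ± 0.21 (edgeR adjusted p = 0.6684). In DG it was 0.91 ± 0.24 (edgeR adjusted p = 0.2567), with 24.4 and 24.5 CPM against 32.1 and 57.5 CPM. Hsp90ab1 and Calr had 0.67 ± 0.20 and 0.77 ± 0.27 in DG, but these rested on Stress-PLX5622, without which they were 0.22 and 0.05. Without Control-PLX5622, Hsp90aa1, Hsp90ab1 and Calr in DG were at 1.11, 0.93 and 1.10, with Stress-PLX5622 as the only PLX5622 pool.

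The 3 tests with lower values were Hsf1 in DG (-0.53 ± 0.23; edgeR adjusted p = 0.6021) and Dnajb5, an HSP40 cochaperone, in CA1 and CA2/3. In DG, Hsf1 was at 38.1 and 51.0 CPM in the Vehicle pools and 19.8 and 40.0 CPM in the PLX5622 pools, so that the groups overlapped. Dnajb5 was at 71.8 and 105 CPM in CA1 of the Vehicle pools and at 52.4 and 52.5 CPM in the PLX5622 pools, control before stress. The log2 difference was -0.68 ± 0.22 in CA1 (edgeR adjusted p = 0.9178) and -0.67 ± 0.26 in CA2/3 (edgeR adjusted p = 0.9925). In the neuronal classes the Stress-PLX5622 pool also had the most mitochondrial and ribosomal RNA, and both PLX5622 pools had a median of fewer than 630 UMIs per nucleus where the Vehicle pools had 2563 and 1325.5. Diet and these features of the pools cannot be told apart.

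The third comparison asked whether deletion of neuronal IL-1R1 altered these genes. None of 238 member tests was called by edgeR, where 0.00367% of all tests were, and none by DESeq2. An unadjusted p under 0.05 was found in 5 (2.1%, beside 2.82% of all tests), 3 higher and 2 lower in nIL-1R1-/-. Calr in DG was the one with the smallest p, at 25.6 and 27.5 CPM in Con-IL-1R1+/+ and Stress-IL-1R1+/+ and at 14.2 and 16.4 CPM in Con-nIL-1R1-/- and Stress-nIL-1R1-/-. Neither pool of one genotype reached those of the other, and the log2 difference was -0.75 ± 0.26 (edgeR adjusted p = 1.0), between -1.10 and -0.34 when 1 pool was left out. In CA1, CA2/3 and INH it was -0.35, -0.14 and -0.16. Hsp90aa1 in DG went the other way, at 0.46 ± 0.22. The rest were Hsp90aa1 in oligodendrocytes (0.85 ± 0.39), Canx in astrocytes (-1.34 ± 0.57, 96 UMIs) and Dnajc6 in endothelial nuclei (1.06 ± 0.45). The small CA1 cluster held 20 and 80 nuclei in the IL-1R1+/+ pools and 149 and 188 in the nIL-1R1-/- pools, control before stress. Its part in the CA1 values was not tested.

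**Figure D5:**
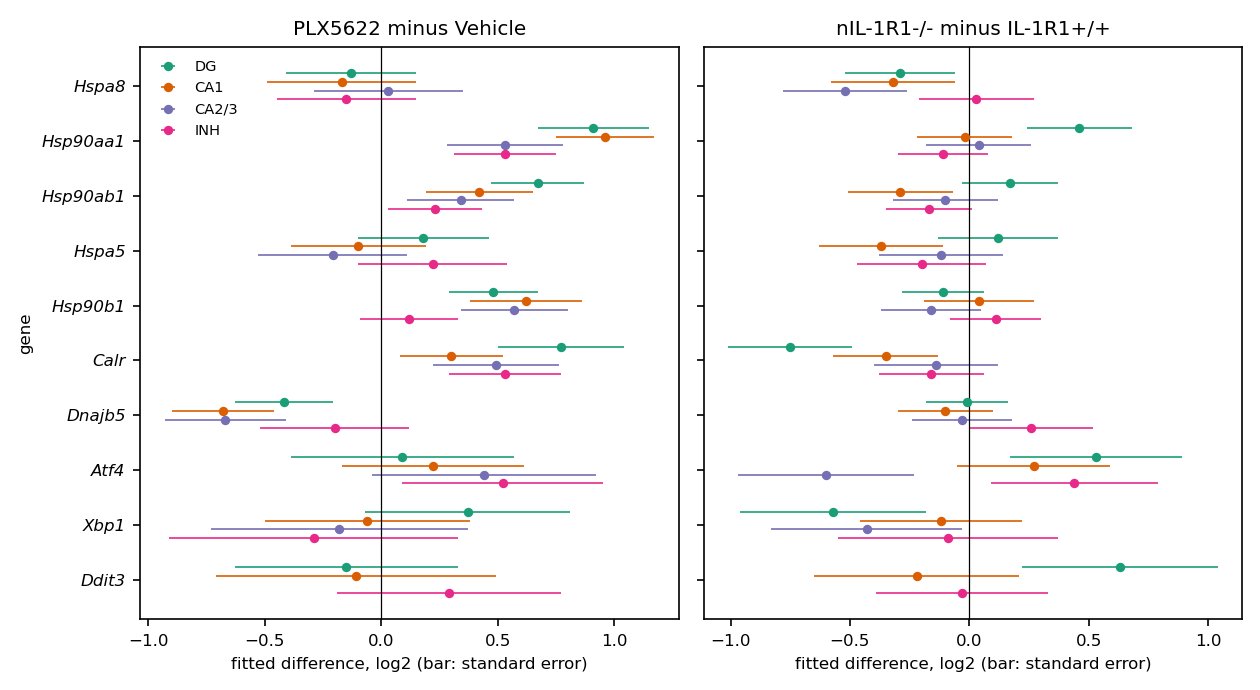
Fitted log2 differences of PLX5622 minus Vehicle (left) and of nIL-1R1-/- minus IL-1R1+/+ (right) with standard errors, for 10 genes in the 4 neuronal classes. Hsp90aa1 lies to the right of 0 in all 4 classes for diet (0.53 to 0.96), Dnajb5 lies to the left in CA1 and CA2/3, and Calr in DG is the lowest point for genotype (-0.75).

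The last comparison asked whether stress acted differently without neuronal IL-1R1, as the stress difference in the nIL-1R1-/- pair minus that in the other 3 pairs. Of those pairs, Vehicle and PLX5622 belong to the diet experiment, so genotype cannot be told apart from experiment and diet in this term. None of 271 member tests was called, where 0.0679% of all tests were, and DESeq2 called none. There were 16 tests with an unadjusted p under 0.05 (5.9%, beside 5.09% of all tests), 10 with a higher and 6 with a lower value. The share of members was close to that of all genes, and the values that follow describe single genes. Hsph1 in INH was at 53.2 and 49.0 CPM in the Vehicle pair, 44.0 and 37.8 CPM in the PLX5622 pair, 38.2 and 42.8 CPM in the IL-1R1+/+ pair and 24.7 and 46.6 CPM in the nIL-1R1-/- pair. The last pair differed most because its control pool was the lowest of all 8. The interaction was 0.94 ± 0.31 on the log2 scale (edgeR adjusted p = 0.4024).

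Hspa8 was at 12.9 CPM in CA1 of Con-nIL-1R1-/- and at 19.0 to 29.2 CPM in the other 7 pools, and its interaction was 0.92 ± 0.38 in CA1 and 0.75 ± 0.34 in DG. Stip1, the HOP protein that bridges HSP70 and HSP90, was at 18.7 CPM in CA1 of the same pool against 29.3 to 37.0 CPM in the other 7 (0.99 ± 0.35). For Dnaja1, an HSP40, the stressed nIL-1R1-/- pool was the highest instead, at 47.3 CPM in CA1 against 19.1 to 32.4 CPM (1.01 ± 0.38). The ER isomerase Pdia3 was also among the higher values, at 0.83 ± 0.35 in INH and 0.97 ± 0.44 in CA2/3. None of these values of Hspa8, Stip1, Dnaja1 and Pdia3 had an adjusted p under 0.7 in edgeR. Con-nIL-1R1-/- was also the deepest pool, with a median of 5012 UMIs per nucleus, and the part of depth was not tested. Stress-nIL-1R1-/- had the most nuclei of the small CA1 cluster, 188 of its 829 CA1 nuclei, and the part of that cluster was not tested.

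Values lower than in the other pairs were found for Dnajb5 in INH. Its 29.9 CPM in Con-nIL-1R1-/- and 16.6 CPM in Stress-nIL-1R1-/- stood against 28.7 and 42.4 CPM in the Vehicle pair, 33.0 and 23.7 CPM in the PLX5622 pair and 19.9 and 20.4 CPM in the IL-1R1+/+ pair. The interaction was -1.01 ± 0.37 (edgeR adjusted p = 0.5314). In endothelial nuclei, Hsf1 was counted with 10, 14, 20 and 0 UMIs in Con-IL-1R1+/+, Stress-IL-1R1+/+, Con-nIL-1R1-/- and Stress-nIL-1R1-/-, too few for a fold change.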

How the data were processed

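Nuclei of 8 pools of 3 hippocampi were barcoded by split-pool ligation (Parse Biosciences). The study's methods describe 8 sublibraries, of which 4 were analysed here. The authors aligned reads to mm39 with the Parse pipeline, and the deposited matrices hold UMI counts per gene and nucleus, not normalized. The submitters' processing notes name Seurat 4.1.1. The strand setting and doublet treatment are not given in the sources used here. For all 57350 nuclei, matrix sums equalled the deposited UMI totals, and no barcode with its sublibrary was shared between pools (0). Pools came from the deposited table of nuclei.

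Nuclei over 20% mitochondrial UMIs were left out, as in the study's methods. Nuclei were clustered with scanpy 1.11.5 (2000 variable genes, 30 principal components, Leiden resolution 1.0), and clusters were named from at least 3 markers, by a rule settled after the clusters were seen. UMIs were summed per class and pool, for classes with at least 25 nuclei per pool. Microglia and endothelial nuclei were fitted without the PLX5622 pair. Sums were tested with the quasi-likelihood test of edgeR 4.0.16 (R 4.3.3; TMM, filterByExpr) with pair and stress as terms, in place of the study's test over nuclei, since nuclei of a pool are not replicates. A further fit gave the stress by genotype term. Adjusted p-values are Benjamini-Hochberg values over all genes of a class, with a threshold of 0.05. Pairs are the pools that share a diet or genotype. Deviations of paired pools correlated at 0.0837 to 0.332 over genes in the neuronal classes. Intervals of 1 pool cover counting error only. Each pool mixes 3 mice, so p-values rest on the spread between pairs.

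Alternatives were DESeq2 1.42.0 and its size factors, no filter, other clusterings, nuclei thinned to 500 UMIs, doublets removed, mitochondrial-rich nuclei kept, pools or pairs left out, single experiments and no pair term. The deeper of the larger clusters of CA1 and DG alone were added after seeing the data. The automatic Scrublet threshold marked 0 or 1 nuclei in 7 pools and 1484 in the other, so it was not used. The fits were tested on simulated data. Loci and promoters came from GENCODE vM39, which held 56017 of the 56748 identifiers. Where no member passed the test, up to 3 members with the smallest p per class and comparison were named, beside a fixed set of leading chaperones and response factors. The members and lists were chosen with earlier results of these data known.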

Additional observations from a re-analysis of the deposited data

Results flagged for a closer look

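Eif2ak3, which encodes PERK, was at 28.2, 28.4, 28.0 and 25.8 CPM over all nuclei in the 4 sublibraries. The lowest stood apart from the others by 0.844 of the whole range, beyond the limit of Dixon's test for 4 values, which chance passes in about 1 of 20 groups. This was the largest such ratio over the 38 genes, all of which were scanned, so chance can give a value of this size. The sublibraries hold nuclei of all pools, and the gap does not separate conditions.

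Dnajc6 (auxilin) differed in opposite directions between stress and control in CA1 of the 2 experiments. Its level was 305 and 268 CPM in the Vehicle pair and 475 and 243 CPM in the PLX5622 pair, a log2 difference of -0.1845 and -0.9682. In the IL-1R1+/+ and nIL-1R1-/- pairs it was 244 and 286 CPM and 264 and 294 CPM, a log2 difference of 0.2278 and 0.158. The counting intervals of all 4 pairs exclude 0, and the difference between the experiments was not tested.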

How the results depend on the processing

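With stress, 0 member tests passed in the fit reported and also with the size factors of DESeq2, thinned nuclei, doublets removed, mitochondrial-rich nuclei kept, the deeper clusters and no replicate block. DESeq2 called 2 (Hsp90ab1 in CA1 and CA2/3), the fit with no filter on low counts 5 (Calr in DG, CA1 and CA2/3, Hsp90ab1 in CA1 and CA2/3), and 15 principal components and Leiden resolution 2.0 called 1 each (Hsp90ab1 in CA2/3). Within the diet experiment alone 7 passed (also Hsp90b1 and Dnajc6 in CA1), where 2296 of 50490 tests of all genes did. Within the genotype experiment alone 3 passed (Pdia3 in CA1, Hspa8 and Hspa5 in INH), where 576 of 79262 tests of all genes did. Leaving out 1 pair gave 0 to 2 calls. Without the PLX5622 pair there was 1 (Hsp90ab1 in CA2/3), beside 154 of 82562 tests of all genes. Without the IL-1R1+/+ pair there were 2 (Hspa12a and Hspa4l in microglia), beside 1132 of 72577 tests of all genes. Other settings also moved the calls over all genes, from 58 of 81689 tests to 255 of 220499 with DESeq2 and 1102 of 220499 with no filter. With no replicate block 1 of 73882 was called. Diet and genotype each gave 0 calls under settings that kept all their pools. With 1 pool left out, a side of the comparison is a single pool. Calls there are not listed, though the 21 below include some of them. The stress by genotype term gave 0 throughout. Leaving out the pair term, set by shared diet or genotype, changed no call of a member. Of 1324 values under the alternatives, of the members with the smallest p in each class and comparison, 1301 kept their direction and side of the threshold, 21 passed it and 2 changed direction: Hsp90ab1 with PLX5622 in astrocytes was 0.91 over all pools and -0.28 to 1.43 with 1 pool left out (-0.28 without Stress-PLX5622), and Hspa5 by genotype in CA1 was 0.02 with 15 principal components. Values of leading genes outside that choice changed sign too, for example those of Calr (-0.52) and Hsp90ab1 (-0.23) with PLX5622 in CA1 with the deeper cluster alone. The cause of these changes was not tested. Depth limits the shallow PLX5622 pools and the rare classes most.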
